A study of Mus musculus with 58 samples.

Results

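STAT5 signalling and its feedback genes were followed in mouse hematopoietic stem cells (HSCs) under caloric restriction (CR), refeeding and aging. The 9 genes, of 55376 rows in each RNA count file, were taken by symbol. They were the inhibitors Cish, Socs1, Socs2 and Socs3, the target kinases Pim1 and Pim2, the transcription factors Stat5a and Stat5b, and the receptor-bound kinase Jak2. They were chosen with results of the diet and knockdown RNA libraries known. Their RNA values, with every call and p-value given for them, are therefore a description without a test. Nothing is read from counts of calls among them, and only the chromatin libraries give tests.

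Cytokines that bind receptors on the HSC surface activate JAK2 on the inner side of the receptor. JAK2 phosphorylates STAT5A and STAT5B, which enter the nucleus and switch on genes that include Cish, the SOCS genes and the PIM kinases. CISH and the SOCS proteins then bind receptors or JAKs and damp the signal, so their mRNA level is commonly read as an output of the pathway, while PIM1 and PIM2 are serine/threonine kinases that favour survival and translation. Phosphorylation itself was not measured here.

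All HSCs came from male C57BL/6 mice. Old mice of 24 to 26 months were fed ad lib (OAL, n = 4 RNA libraries), held under 40% CR for life (OCR, n = 4), or returned to ad lib food for 4 weeks after it (OCRRF, n = 2). Young mice of 3 to 4 months were fed ad lib (YAL, n = 4), restricted for 4 weeks at 20% in the first week and 40% afterwards (YCR, n = 4), or refed for 4 weeks after that (YCRRF, n = 4). For the diet groups HSCs were sorted as LSK CD34-Flk2-CD150+ cells. In a separate experiment HSCs of old mice received lentiviral shRNA, were cultured and were transplanted into irradiated young female recipients. GFP-marked Kdr knockdown (n = 4) had its own scramble control (n = 2), and a double knockdown of Kdr and Bmpr1a, with 1 of 2 Bmpr1a shRNAs (2 libraries each, pooled as n = 4), had another (n = 2). After transplantation the donor HSCs were sorted with another gate, LSK CD48-CD150+CD45.2+, which uses neither CD34 nor Flk2. All of these cells carry a viral vector and a transplant history, and their RNA was prepared and sequenced differently from the diet libraries. Values are therefore not compared across the 2 experiments.

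The diet libraries held 11102898 to 36579392 counts on genes and the knockdown libraries 35657999 to 44780217. All 10 HSC markers looked for, among them Kit, Procr and Slamf1, were above 1 CPM in each group. The summed T cell markers stayed at or under 4.94 CPM in the diet libraries, while those of B and plasma cells reached 355.1 CPM in YCR. The young libraries detected 22209 to 33496 genes and the old ones 42071 to 46646. Age therefore cannot be told apart from other differences between these sets of libraries.

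Sequences that match the STAT5 motif TTCNNNGAA show which of these genes carry the letters that STAT5 dimers prefer in open chromatin. The motif reads the same on both strands, so a match counts once. The windows come from the GRCm38 (mm10) reference, in the direction of the gene, with 10 bases on each side of the match. They lie in the accessible (ATAC-seq) regions within 5 kb of a start site, and the capitals mark the match.
Cish, start site (chr9:107296649-107296677, +): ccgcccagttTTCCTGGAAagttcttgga
Cish, 11 bases downstream (chr9:107296660-107296688, +): tcctggaaagTTCTTGGAAatctgtcaaa
Cish, 105 bases downstream (chr9:107296754-107296782, +): aagcccgcggTTCTAGGAAgatgaggctt
Cish, 122 bases downstream (chr9:107296771-107296799, +): aagatgaggcTTCCGGGAAgggctgggac
Socs3, 154 bases upstream (chr11:117969502-117969530, -): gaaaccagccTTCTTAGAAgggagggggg
Socs3, 119 bases downstream (chr11:117969229-117969257, -): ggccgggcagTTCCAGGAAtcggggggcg
Socs1, 453 bases upstream (chr16:10785971-10785999, -): gctagccgggTTCCAAGAAgggtcgagat
Pim2, 273 bases upstream (chrX:7878023-7878051, +): cgcaaaggaaTTCCCAGAAgcgtgcatgt
Jak2, 664 bases upstream (chr19:29251129-29251157, +): aagcggtcccTTCGCAGAAgtggtggtta

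The region at the Cish start site, 902 bp wide, held 4 matches in 2 pairs. Of the 14105 consensus regions within 10% of that width, 25.5% held a match and 0.0284% held 4 or more. The Socs3 region held 2, which 3.87% of the regions of like width reached. The 3 Socs2 regions were not scanned. Among the 18 regions near the other genes, 5 (27.8%) held the motif, beside 17% of all 131918 regions, at a median width of 686 bp against 508 bp. No match was seen near Pim1, Stat5a or Stat5b. In the RefSeq promoter table for GRCm38, which covers 250 bases before to 50 after a start and holds 8 of the 9 genes, 2 of 11 promoters held the motif (Cish and Socs3), beside 8.3% of all 32851. The match says only that the letters are there, not that STAT5 binds.

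Socs2, on chromosome 10 (95385362 to 95417180, minus strand, GENCODE annotation on mm10), encodes a SOCS protein best known for limiting growth hormone receptor signalling. Its level, in counts scaled to library size by TMM (CPM), was 51.8, 88.5, 85.2 and 64.2 in the YAL libraries and 17.2, 15.1, 22.9 and 15.6 in YCR. After refeeding (YCRRF) it was 56.3, 33.5, 79.7 and 62.4. Every YCR library was below every YAL and YCRRF library, while the latter pair of groups overlapped. In old HSCs the level was 15.4, 9.72, 7.60 and 12.3 CPM in OAL. It was 2.79, 4.48, 4.91 and 5.07 CPM in OCR and 32.7 and 18.1 CPM in OCRRF. All 4 OCR libraries lay below all OAL libraries, and both refed old libraries lay above every OAL library. The fitted level was 4.03-fold lower in YCR than in YAL (log2 fold change -2.01, SE 0.210) and 2.58-fold lower in OCR than in OAL (log2 -1.37, SE 0.201). Refeeding was followed by a 5.69-fold higher level in old HSCs (log2 2.51, SE 0.208) and a 3.24-fold higher level in young HSCs (log2 1.70, SE 0.272). The group means fell in the order YAL, YCRRF, OCRRF, YCR, OAL and OCR, and of these neighbours YAL and YCRRF, OCRRF and YCR, and YCR and OAL overlapped.

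Cish, on chromosome 9 (107296026 to 107302784, plus strand), encodes the founding member of the SOCS family and is the classical STAT5 target that carries the paired motifs above. It stood at 113.5, 160.0, 128.5 and 117.7 CPM in YAL and at 67.8, 48.6, 55.6 and 60.1 CPM in YCR. In YCRRF it was 108.3, 137.4, 144.9 and 117.4 CPM. The young restricted libraries were again set apart from both ad lib and refed ones. In old HSCs it was 125.1, 64.3, 48.5 and 57.2 CPM in OAL, 27.8, 39.3, 49.7 and 33.0 CPM in OCR, and 75.2 and 61.6 CPM in OCRRF. Here OAL and OCR overlapped by 1 library on each side, and OAL replicate 1 stood above the other OAL libraries. The fitted Cish level was 2.21-fold lower in YCR than in YAL (log2 -1.14, SE 0.139) and 1.96-fold lower in OCR than in OAL (log2 -0.97, SE 0.190). Without OAL replicate 1 the old difference was -0.58 on the log2 scale (SE 0.135). The gene overlaps the antisense genes Gm17040 and Gm17041, and how the counting treated strand is not given in the sources used here, so some counts may be theirs.

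Socs1 and Socs3 encode inhibitors that bind JAKs directly and respond strongly to interferons and to STAT3-activating cytokines. Socs1 was 27.9, 31.1, 33.2 and 24.5 CPM in YAL and 23.8, 22.6, 13.2 and 20.7 CPM in YCR. In old HSCs it was 24.6, 25.0, 24.2 and 25.3 CPM in OAL and 16.8, 18.2, 23.9 and 18.3 CPM in OCR. At both ages the restricted libraries lay below the ad lib ones, by a narrow gap. The fitted difference was -0.52 on the log2 scale in young (SE 0.214) and -0.35 in old HSCs (SE 0.113). After refeeding it was 29.0, 26.6, 37.1 and 22.6 CPM in YCRRF and 18.2 and 23.8 CPM in OCRRF. Both refed groups overlapped the restricted group of their age.

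Socs3 behaved differently with age. It was 11.5, 15.6, 16.9 and 12.1 CPM in YAL and 78.8, 46.3, 33.0 and 45.7 CPM in OAL, with no overlap, and the fitted level was 3.65-fold higher in OAL (log2 1.87, SE 0.246). In OCR it was 27.4, 28.7, 30.6 and 30.4 CPM, below every OAL library (log2 -0.79, SE 0.156), and -0.49 (SE 0.118) without OAL replicate 1. In OCRRF it was 29.1 and 36.6 CPM, within reach of OCR (log2 difference 0.11, SE 0.138). In young HSCs the YCR libraries spread from 2.60 to 18.5 CPM (median 11.2) and the YCRRF libraries from 2.54 to 27.9 CPM (median 18.0). These young groups overlapped throughout.

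Pim2, on the X chromosome, was the target kinase with the clearer diet pattern. It was 65.0, 90.6, 108.8 and 77.5 CPM in YAL, 37.3, 32.1, 31.9 and 37.8 CPM in YCR, and 96.1, 85.8, 63.1 and 109.3 CPM in YCRRF. In old HSCs it was 204.9, 136.9, 84.1 and 112.8 CPM in OAL, 49.8, 71.8, 53.6 and 69.0 CPM in OCR, and 192.5 and 150.6 CPM in OCRRF. Restricted libraries were below ad lib and refed libraries at both ages without overlap. The fitted Pim2 level was 2.42-fold lower in YCR than in YAL (log2 -1.27, SE 0.165) and 2.18-fold lower in OCR than in OAL (log2 -1.12, SE 0.165). It was 2.52-fold higher in YCRRF than in YCR (log2 1.33, SE 0.187) and 2.70-fold higher in OCRRF than in OCR (log2 1.43, SE 0.134). Pim1 followed less steeply. It was 116.1, 91.8, 144.9 and 97.9 CPM in YAL, 56.9, 65.6, 56.2 and 89.2 CPM in YCR, and 94.5, 119.3, 160.5 and 123.0 CPM in YCRRF. In old HSCs it was 184.9, 114.1, 107.7 and 141.8 CPM in OAL, 96.3, 90.7, 119.7 and 85.0 CPM in OCR, and 107.8 and 130.1 CPM in OCRRF. The young restricted libraries stood apart, and the 3 old groups overlapped. The Pim1 difference of OCR from OAL was -0.47 on the log2 scale (SE 0.123), and -0.29 (SE 0.109) without OAL replicate 1, where its call was lost. Pim1 overlaps the antisense gene Gm26885.

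The transducers and the kinase upstream of these outputs differed less under restriction than Socs2, Cish or Pim2. Across the 22 diet libraries Stat5a ranged from 124.8 to 253.4 CPM, Stat5b from 121.4 to 303.8 CPM and Jak2 from 94.0 to 187.2 CPM. Their group means lay between 179.1 and 228.1 CPM for Stat5a, 175.1 and 245.9 CPM for Stat5b, and 133.9 and 161.2 CPM for Jak2. Restricted and ad lib libraries overlapped for each of the 3 genes at both ages. The restriction differences were 0.01 and -0.07 on the log2 scale for Stat5a in young and old HSCs, -0.21 and 0.01 for Stat5b, and -0.22 and 0.12 for Jak2, with SEs from 0.0760 to 0.159. In OCRRF all 3 were below OCR without overlap, by -0.17 (Stat5a), -0.19 (Stat5b) and -0.29 (Jak2) on the log2 scale. This set 2 libraries against 4, and the share of all genes so separated was not counted. With TMM factors taken from genes above 5 CPM those 3 differences shrank to -0.04, -0.05 and -0.15. In YCRRF against YAL Stat5a was at -0.33 (SE 0.185), Stat5b at -0.32 (SE 0.208) and Jak2 at -0.19 (SE 0.182). In OAL against YAL they were at -0.13 (SE 0.0681), -0.34 (SE 0.127) and -0.07 (SE 0.119). All of these groups overlapped. Stat5a and Stat5b are near-identical paralogs and Stat5a also overlaps Stat3, so counts from shared stretches are uncertain.

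**Figure D1:**
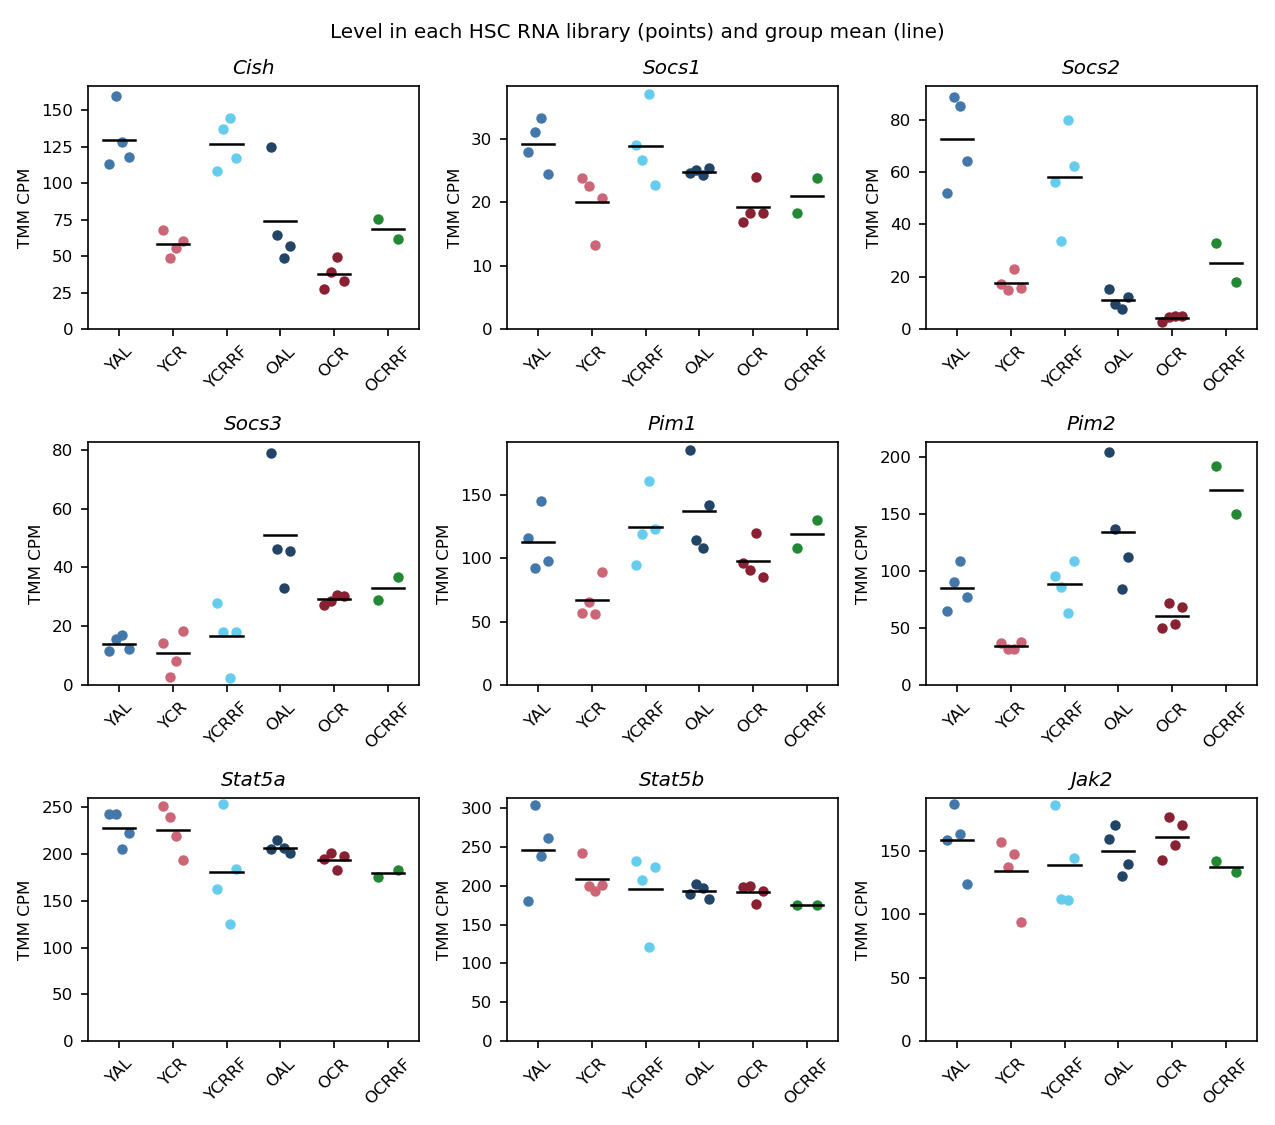
Level of each gene (TMM CPM, vertical axis from 0) in every diet RNA library, with young and old groups along the horizontal axis; points are libraries and black lines are group means. For Socs2 and Pim2 the 4 restricted libraries sit below the ad lib and refed libraries of the same age, while Stat5a, Stat5b and Jak2 overlap between ad lib and restricted groups.

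Levels per kilobase of exon set genes side by side only roughly, since the length pools the exons of all annotated transcripts of a gene. For Cish it was 6419 bp, nearly the whole gene, and for Socs2 9531 bp, so the expressed mRNA may be shorter by an unlike factor in each gene. By this measure the kinase and transducers were at 31.5 (Jak2), 32.0 (Stat5a) and 44.4 (Stat5b) CPM per kb in YAL. The PIM kinases were at like levels there, 33.5 for Pim1 and 30.6 for Pim2. The inhibitors were lower, with 20.2 for Cish, 10.0 for Socs1, 7.60 for Socs2 and 4.85 for Socs3. In OCR the order of the inhibitors was different. Socs3 stood highest at 10.1 CPM per kb, followed by Socs1 at 6.63, Cish at 5.84 and Socs2 at 0.452.

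The study used DESeq2, and edgeR was used here with the same limits, an adjusted p (Benjamini-Hochberg) below 0.05 and a fold change above 1.2. By that count 5 of the 9 genes were lower in OCR than in OAL: Cish, Pim1, Pim2, Socs2 and Socs3. Of all 27150 genes tested there, 3.03% were called lower. In YCR against YAL 3 were lower (Cish, Pim2 and Socs2), where 0.193% of 18680 genes were called lower. In OCRRF against OCR 3 were higher (Cish, Pim2 and Socs2), where 0.694% of 32577 genes were called higher. The genes were picked from these contrasts, so nothing is read from these counts. In YCRRF against YCR none was called by edgeR, where only 2 genes of 19535 (0.0102%) were. There 4 had an unadjusted p below 0.05 (7.27% of all genes did), and DESeq2 called 4 (Cish, Pim1, Pim2 and Socs2), beside 1.43% of all genes called by DESeq2. YCRRF replicate 3 stood apart from the other YCRRF libraries over all genes. The chi-square per degree of freedom between 2 libraries was 182.9 to 407.2 for pairs with it and 31.2 to 65.9 for the other YCRRF pairs. Its part in the number of genes called over all genes was not tested. The median log2 fold change of the 9 genes was -0.47 in OCR against OAL and -0.52 in YCR against YAL, while that of all genes tested was 0.02 and 0.01. After refeeding it was 0.11 in OCRRF against OCR, as for all genes (0.11), and 0.58 in YCRRF against YCR beside 0.02 for all genes.

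**Figure D2:**
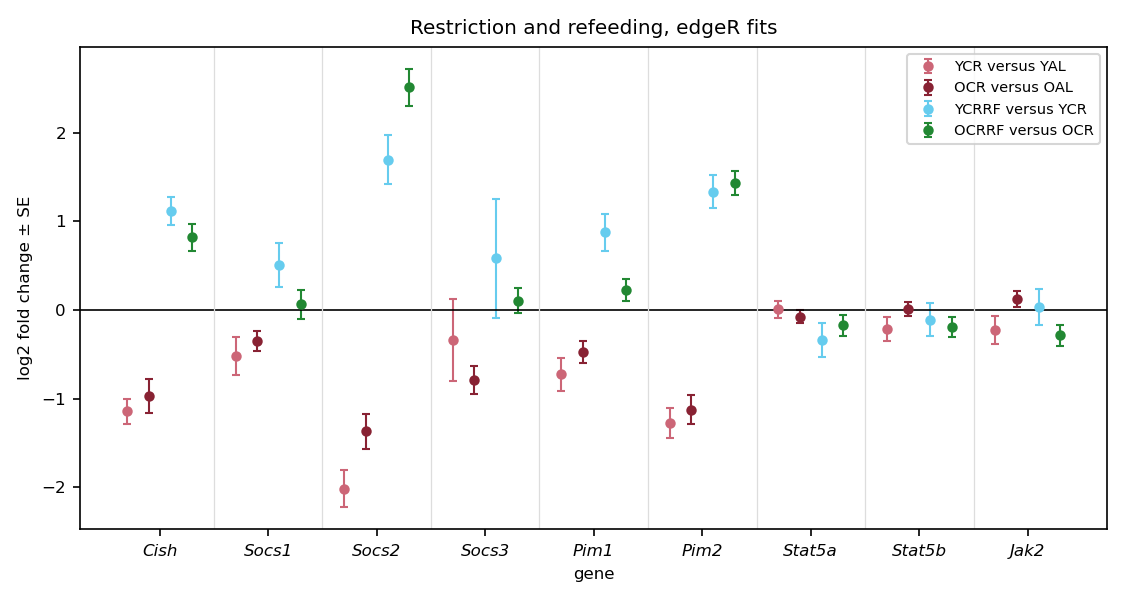
Log2 fold change with its SE (vertical axis) of each gene (horizontal axis) for restriction and refeeding at both ages, from separate edgeR fits that share the restricted libraries. Socs2, Cish and Pim2 lie below 0 under restriction and above 0 after refeeding at both ages, with Socs2 at -2.01 and -1.37 under restriction and 1.70 and 2.51 after refeeding.

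Young and old HSCs were then compared in their response. For restriction, the old minus young difference was 0.66 for Socs2 (log2, SE 0.326), 0.19 for Cish (SE 0.325), 0.28 for Pim1 (SE 0.258) and 0.16 for Pim2 (SE 0.286). None of the 9 genes was called in that interaction by edgeR or DESeq2, and none had an unadjusted p below 0.05, which 8.93% of all genes had. Only 0.0424% of all genes were called there. For refeeding, the difference was 0.87 for Socs2 (SE 0.411), -0.59 for Pim1 (SE 0.273), -0.24 for Cish (SE 0.266) and 0.16 for Pim2 (SE 0.269). None was called by either tool, and 2 had an unadjusted p below 0.05, beside 0.00291% of all genes called and 6.38% with such a p. Without OCRRF replicate 1 the Socs2 refeeding difference was 0.34 (SE 0.469). In simulated data the restriction interaction recovered 57% of genes changed by a factor of 2, so a difference of that size could be missed.

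Refed HSCs were also set against ad lib HSCs of their age. In young mice all 9 genes overlapped between YCRRF and YAL, none was called by edgeR or DESeq2, none had an unadjusted p below 0.05 (3.69% of all genes did), and edgeR called 0% of the 19334 genes tested. Cish differed there by -0.02 (SE 0.150), Pim2 by 0.06 (SE 0.200) and Socs2 by -0.31 (SE 0.263) on the log2 scale. In old mice Socs2 was 2.24-fold higher in OCRRF than in OAL (log2 1.16, SE 0.226) and was the only one of the 9 called by edgeR, where 1.66% of 31816 genes were called higher and 2.48% lower. DESeq2 called 3 of the 9 there (Socs2 higher, Socs1 and Stat5a lower), beside 12.3% of all genes. An unadjusted p below 0.05 was seen for 5, beside 26.9%. By sign alone 7 of the 9 were lower and 2 higher in OCRRF. On the log2 scale Socs1 was at -0.25 (SE 0.120), Stat5a at -0.22 (SE 0.0665) and Stat5b at -0.15 (SE 0.0687). For these 3 genes both OCRRF libraries lay below every OAL library. Under the other settings they ranged from -0.32 to -0.11, -0.28 to -0.08 and -0.21 to -0.008. The share of all genes without overlap was not counted at either age. Without OCRRF replicate 1 the Socs2 difference was 0.65 (SE 0.261), and its call was lost. It was lost as well without OAL replicate 2. Cish was near its OAL level (log2 -0.12, SE 0.244), whereas Socs3 was at -0.65 (SE 0.223). With a library left out these ranged from -0.29 to 0.29 for Cish and from -0.83 to -0.33 for Socs3. Both genes overlapped between OCRRF and OAL.

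With age itself, 2 of the 9 genes were called between OAL and YAL, with Socs2 6.38-fold lower in old HSCs (log2 -2.67, SE 0.234) and Socs3 higher. Of 23525 genes, 7.93% were called lower and 6.89% higher. Cish was at -0.80 (SE 0.251) and Pim2 at 0.66 (SE 0.237) on the log2 scale, and both overlapped between ages. Without OAL replicate 1 these were -1.18 and 0.39. The old libraries detected more genes than the young ones, as given above, and the part of that difference in these values cannot be told apart from age.

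Some summed marker lists differed between the same groups. The 8 immediate early genes, which respond to cell handling, summed to 271.9 to 392.6 CPM in YAL, 214.6 to 272.5 in YCR and 293.5 to 342.4 in YCRRF. In old HSCs they summed to 270.2 to 385.2 in OAL, 178.1 to 262.1 in OCR and 267 to 294 in OCRRF. The 8 interferon response genes summed to 373.7 to 468 CPM in YAL, 274.4 to 341.4 in YCR and 327.6 to 473.7 in YCRRF. In old HSCs they summed to 285.7 to 351.9 in OAL, 266.4 to 296.3 in OCR and 334.2 to 357.2 in OCRRF. The early gene sums of restricted and ad lib libraries were apart in old HSCs and overlapped narrowly in young ones. The interferon sums were apart in young HSCs and overlapped in old ones. Refed libraries had higher early gene sums than restricted ones at both ages without overlap, and higher interferon sums in old HSCs. Socs2, Cish and Pim2 moved in the same direction. The 5 megakaryocyte and mast cell markers summed to 63.6 to 94.2 CPM in YAL, 95.5 to 142.0 in YCR, 43.8 to 143.9 in YCRRF, 64.3 to 77.4 in OAL, 65.1 to 121.9 in OCR and 49.1 to 57.6 in OCRRF. These were higher in YCR than in YAL and lower in OCRRF than in OCR without overlap. The part of these sums in the values of the 9 genes was not tested. The sum of the 10 HSC markers was 4406 to 4746 CPM in YAL and 4136 to 4586 in YCR, and 4110 to 4697 in OAL and 3596 to 4264 in OCR. In sorted populations, fewer cells that express a gene and less RNA per cell cannot be told apart.

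The genes most like Socs2 over the 22 diet libraries, by Pearson r of log2 CPM after subtracting the mean of each age, were Slfn2 (0.924), Kcnk5 (0.915), Serpina3g (0.908), Pik3cd (0.905) and Pim2 (0.896), among the 12327 genes that averaged 5 CPM or more. For Cish they were Gm17041 (0.97), Slfn2 (0.912), Pim2 (0.884), Kcnk5 (0.881) and Gm11802 (0.878). Gm17041 overlaps Cish, so the 2 may share reads. Pim2, Slfn2 and Kcnk5 stood in both lists. These correlations are a description, since libraries of a group share their diet.

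Outside the 9 genes, 53 other genes of the pathway were examined. This list too was chosen with earlier results of these data known. Its calls and adjusted p-values, here and below, are therefore a description without a test. Nothing is read from its shares. They comprise cytokine receptors, other JAKs and STATs, adaptors with further inhibitors, and other targets. In OCR against OAL 5 of 53 (9.43%) were called, beside 5.57% of all genes. Of the receptors, Epor, the erythropoietin receptor, was higher in OCR (10.1 ± 1.95 to 18.6 ± 3.92 CPM, mean ± SD, log2 0.91, adjusted p = 0.000178). Ghr, the growth hormone receptor, was lower (log2 -0.39, adjusted p = 0.0225). Of the targets, the AP-1 subunit Junb was lower (log2 -0.60, adjusted p = 0.000862) and the cyclin Ccnd1 higher (log2 0.34, adjusted p = 0.0338). No kinase, STAT, adaptor or inhibitor on this list passed. Epor and Junb kept their call with any 1 library left out, and Ghr and Ccnd1 kept it in only 3 and 2 of 8 such fits. In YCR against YAL 1 of 50 tested passed (2%, beside 0.257% of all genes), the erythroid and megakaryocytic repressor Gfi1b, which was higher (112.9 ± 4.36 to 193.2 ± 43.4 CPM, adjusted p = 0.048), a call kept in 1 of 8 fits with a library left out.

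After refeeding of old mice, 11 of the 53 (20.8%) were called in OCRRF against OCR, 3 higher and 8 lower, beside 3.41% of all genes (2.71% called lower). The shared beta receptor chains Csf2rb and Csf2rb2 were higher (log2 1.09, adjusted p = 0.00103, and 0.73, adjusted p = 0.0161), although these paralogs may share reads, and so was Junb (log2 0.52, adjusted p = 0.0263). The repressor Bcl6, which STAT5 is known to repress, was lower (23.2 ± 4.67 to 8.46 ± 0.214 CPM, log2 -1.51, adjusted p = 5.23e-07). Ccnd1 (log2 -0.85, adjusted p = 0.000112), Epor (log2 -0.82, adjusted p = 0.00543) and Gfi1b (log2 -0.75, adjusted p = 0.0049) were also lower. Without OCRRF replicate 1 only the Bcl6 call of these 7 remained. Against OAL, 6 of 53 were called, all lower in OCRRF (11.3%, beside 2.48% of all genes called lower). Ccnd1 was at -0.48 (adjusted p = 0.0411), Kit, the stem cell factor receptor, at -0.37 (adjusted p = 0.0346), Ccnd3 at -0.34 (adjusted p = 0.0269) and Grb2 at -0.31 (adjusted p = 0.034) on the log2 scale. All 4 of these calls were lost with TMM factors from genes above 5 CPM. That scaling moved the median of all genes from 0.11 to 0.24 on the log2 scale against OCR, and from 0.12 to 0.27 against OAL. The share of called genes that were higher in OCRRF went from 20.4% to 37.2% and from 40.1% to 93.3%. No list gene was called in YCRRF against YCR or YAL.

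With age 17 of 53 (32.1%) were called in OAL against YAL, 7 higher and 10 lower, beside 14.8% of all genes, of which 46.5% were higher, or 70.5% with TMM factors from genes above 5 CPM. Receptors made up 8 of them. Csf2rb (log2 -1.34, adjusted p = 0.0077), Flt3 (log2 -0.91, adjusted p = 0.0145) and Epor (log2 -0.65, adjusted p = 0.043) were lower in OAL, and Ghr (log2 1.05, adjusted p = 0.004) and Csf3r, the G-CSF receptor (log2 0.52, adjusted p = 0.0326), were higher. Bcl6 was higher (log2 2.16, adjusted p = 0.00839), as was the survival gene Bcl2 (log2 0.43, adjusted p = 0.00669), whereas the cyclin Ccnd2 was lower (799.3 ± 52.0 to 452.6 ± 29.5 CPM, adjusted p = 7.74e-05). The Epor and Csf3r calls were each kept in 2 of 8 fits with a library left out, and the other 6 in at least 6. None of the 53 was called in the interactions of age with restriction or refeeding.

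The knockdown libraries come from a separate experiment, and the values of the 9 genes in them are again a description. Kdr, the VEGF receptor gene that was targeted, was 1.93, 2.21, 3.28 and 2.03 CPM in Kdr knockdown cells and 6.04 and 6.07 CPM in the scramble. It was 1.24, 0.555, 1.60 and 1.35 CPM in the double knockdown and 3.97 and 4.62 CPM in its scramble. All knockdown libraries were below their controls, although neither difference was called (adjusted p = 0.247 in the first). Bmpr1a was 4.44 and 0.656 CPM with the first shRNA, 2.22 and 0.595 CPM with the second, and 5.21 and 4.43 CPM in the scramble, where the lowest scramble and the highest knockdown library overlapped.

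Of the 9 genes Pim2 had the highest fold change in both knockdowns. It was 90.1, 170.9, 86.5 and 152.9 CPM after Kdr knockdown and 52.7 and 69.4 CPM in the scramble. After the double knockdown it was 81.3 and 77.8 CPM with the first Bmpr1a shRNA and 75.6 and 125.5 CPM with the second, against 53.6 and 58.0 CPM in that scramble. Every knockdown library lay above its controls. The difference was 2.05-fold for Kdr (log2 1.04, SE 0.291) and 1.61-fold for the double knockdown (log2 0.69, SE 0.204), and neither was called by edgeR. Over the other settings and with a library left out the log2 difference was 0.845 to 1.25 for Kdr and 0.49 to 0.85 for the double knockdown.

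None of the 9 was called by edgeR in either knockdown, where 0.0149% and 0.00498% of all genes were. At an unadjusted p below 0.05 there was 1 in each, Pim2, beside 6.76% and 9.85% of all genes, and DESeq2 called none of the 9 after Kdr knockdown and Pim2 after the double knockdown (1.65% of all genes). Cish was 34.8, 51.2, 45.4 and 41.1 CPM after Kdr knockdown and 47.1 and 63.1 CPM in the scramble (log2 -0.35, SE 0.165). Socs2 was 36.3, 61.7, 52.8 and 35.1 CPM against 48.2 and 56.6 CPM (log2 -0.17, SE 0.222), and these overlapped. In the double knockdown Socs2 was 11.6, 26.7, 30.0 and 37.0 CPM against 43.5 and 33.2 CPM (log2 -0.54, SE 0.371). Stat5a, Stat5b and Jak2 differed by -0.09 to 0.03 on the log2 scale in both. In simulated data 87% and 78% of genes changed by a factor of 2 were recovered, so smaller differences could be missed. Summed myeloid markers were 789.4 to 2210 CPM after Kdr knockdown and 577.5 to 1195 CPM in its scramble, whereas they were 680.7 to 1929 CPM after the double knockdown and 1673 to 2421 CPM in that scramble. The sum of Cd34 and Flt3 (Flk2) was 484.9 to 580.3 CPM after Kdr knockdown against 394.4 to 469.7 CPM, and 587.3 to 915 CPM after the double knockdown against 489.5 to 531.9 CPM. Like Pim2, this sum was higher in both knockdowns without overlap, and its part in the Pim2 values was not tested.

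**Figure D3:**
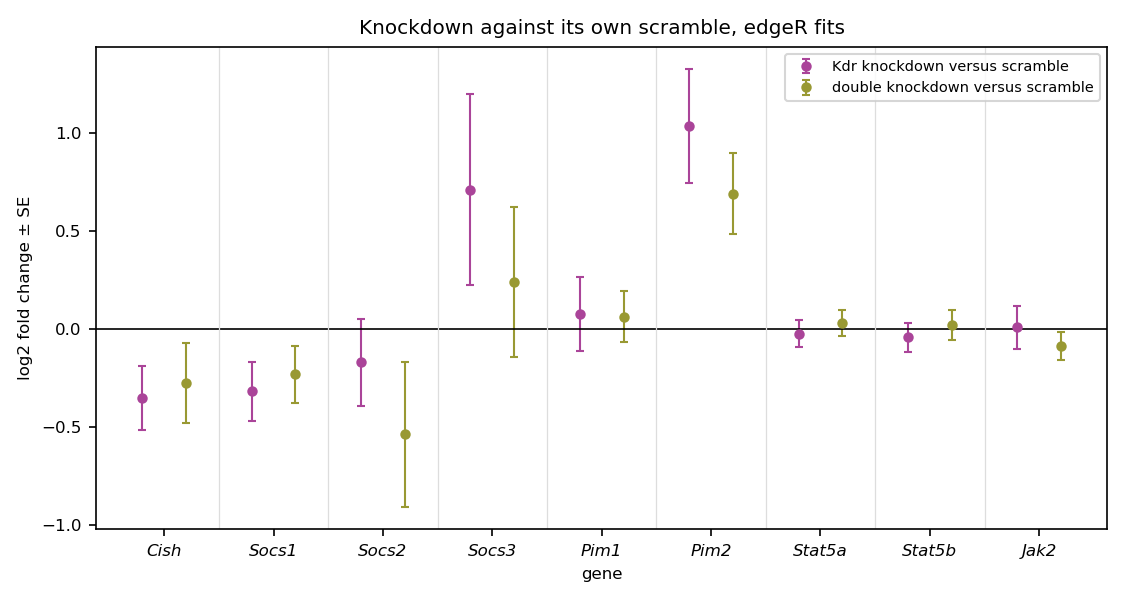
Log2 fold change with its SE (vertical axis) of each gene (horizontal axis) in knockdown against scramble cells, 4 against 2 libraries in each. Pim2 stands highest in the double knockdown and in the Kdr knockdown, at 0.69 and 1.04, and neither was called by edgeR.

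Accessibility was compared between OCR (n = 4) and OCRRF (n = 2) over consensus ATAC-seq regions, an assay that did not enter the choice of genes. The 4 OAL libraries of this assay were not analysed here, so the values have no ad lib reference. The libraries held 15721335 to 19558148 counts in regions. Of 21 regions within 5 kb of a start site, none met the study's limits in an edgeR fit (adjusted p below 0.05, fold above 1.5 and mean log2 CPM above 1.5), beside 0.221% of the 123372 regions tested. DESeq2 called none either, and 4 had an unadjusted p below 0.05, beside 11.7% of all regions. The Socs2 promoter region was 1 of these 4. This region (chr10:95416493-95418205, 1712 bp wide) has its centre 492 bp upstream of the nearest Socs2 start site. It held 27.7, 33.4, 31.2 and 30.4 CPM in OCR and 49.3 and 39.5 CPM in OCRRF. Both refed libraries were above all restricted ones. The log2 difference of OCR from OCRRF was -0.54 (SE 0.0887, adjusted p = 0.000822), which passed the adjusted p but not the fold of 1.5. Without OCRRF replicate 1 it was -0.37 (adjusted p = 0.192), and without OCRRF replicate 2 it was -0.69 and met the threshold.

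A pair of smaller Socs2 regions within the gene pointed the same way without passing (log2 -0.39, adjusted p = 0.351, and -0.33, adjusted p = 0.522). The region at the Cish start site with its 4 motif matches held 22.1, 29.9, 31.8 and 24.3 CPM in OCR and 31.5 and 27.4 CPM in OCRRF, and these overlapped (log2 -0.13, adjusted p = 0.701). The region at the Pim2 start site held 25.8, 29.6, 30.2 and 27.1 CPM against 29.7 and 29.6 CPM (log2 -0.07, adjusted p = 0.817). Thus for Cish and Pim2, whose mRNA was higher in OCRRF than in OCR, no difference in accessibility was detected at the promoter. The most accessible of the 21 regions was at Socs1, with 87.4 to 104.5 CPM in OCR (median 98.3) and 110.4 and 106.6 CPM in OCRRF (log2 -0.16, adjusted p = 0.254). Within 20 kb, 1 region was called, 16727 bp downstream of the Socs1 start (chr16:10768403-10769215). It held 6.83, 8.45, 10.5 and 11.8 CPM in OCR and 16.7 and 13.6 CPM in OCRRF (log2 -0.70, adjusted p = 0.0221).

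**Figure D4:**
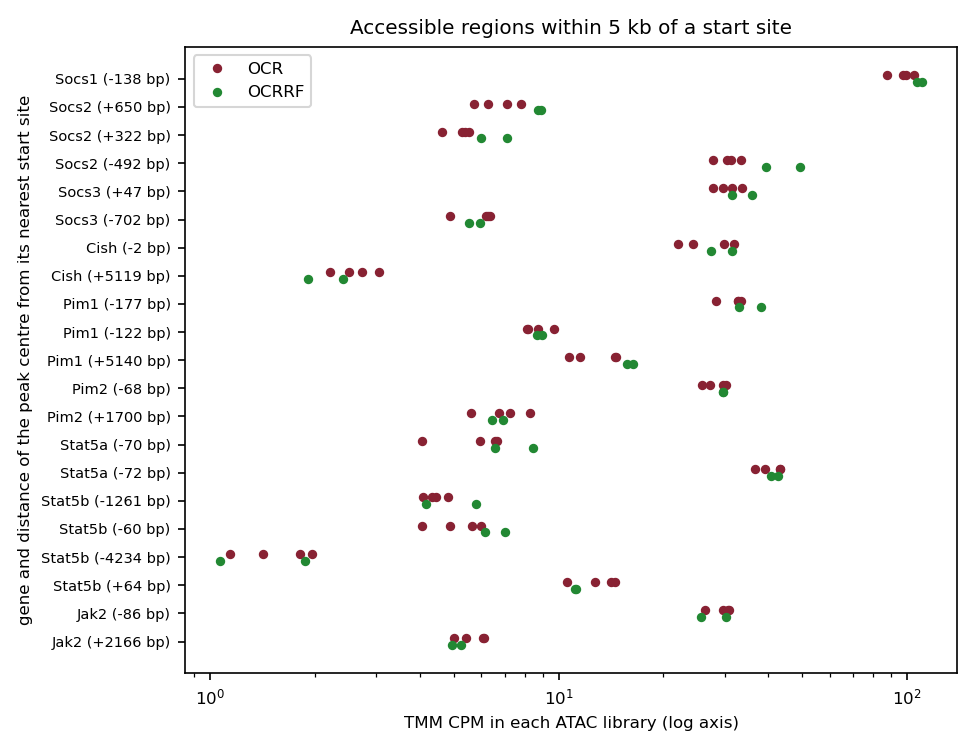
Accessibility (TMM CPM, log axis) of the 21 regions within 5 kb of a start site in each OCR and OCRRF library; rows are regions, named by gene and distance of the region's centre from the nearest start site. At the Socs2 promoter region (-492 bp) the refed libraries, at 49.3 and 39.5 CPM, lie to the right of the 4 restricted ones.

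Histone marks were available for OCR (n = 2 libraries for each mark). H3K4me3 marks active or poised promoters and H3K27me3 is laid down by Polycomb at repressed ones. Signal is the authors' mean over a window of 750 bp for H3K4me3 and 2000 bp for H3K27me3 downstream of each start site. The 4 annotated Socs2 start sites had H3K27me3 of 4.24 to 4.95 in replicate 1 and 3.88 to 4.41 in replicate 2, above 93% of the 31552 promoters in each library. The start sites of the other 8 genes had at most 0.368 and 0.256. At the same Socs2 sites H3K4me3 was 19.2 to 27.3 and 16.6 to 24.9, between the 58.3 and 72 percentiles. Socs2, the gene of the 9 with the lowest level per length in OCR, thus carried both marks in these cell populations, and whether on the same alleles or cells was not measured. Pim1 had the highest H3K4me3 (47 and 40.5 at its first start site), followed by Cish (41.4 and 38.9). The third Stat5b start site had almost none (0.229 and 0.267). Windows of neighbouring Socs2 start sites overlap, so these are not independent values, and the OAL libraries of these marks were not analysed here.

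**Figure D5:**
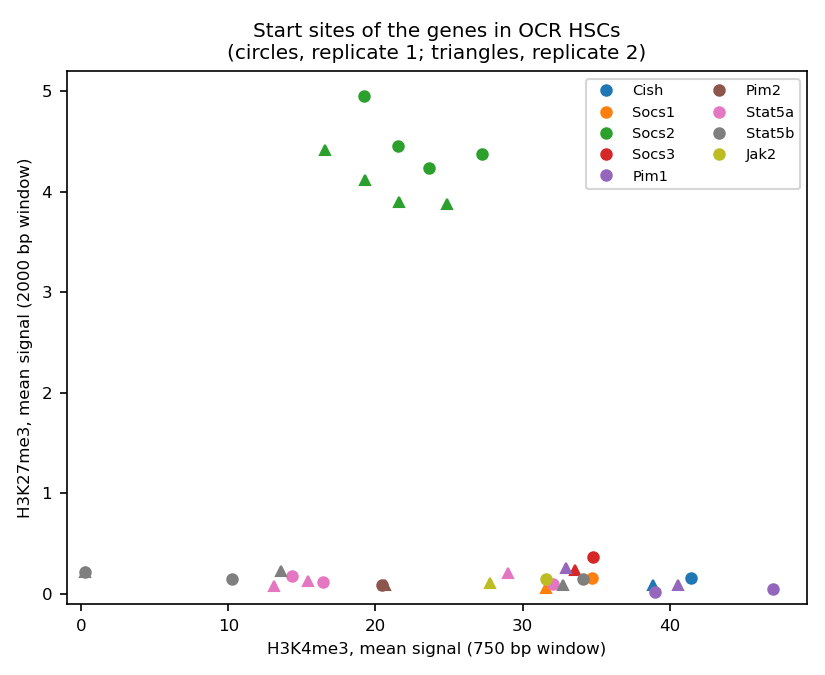
H3K27me3 signal (vertical axis) against H3K4me3 signal (horizontal axis) at each annotated start site of the 9 genes in OCR HSCs, with circles and triangles for the 2 libraries. The 4 Socs2 start sites lie at H3K27me3 of 3.88 to 4.95, and all others at 0.368 or below.

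PU.1, a myeloid transcription factor, had 2262 to 5464 called peaks in each library of OCR, OCRRF and the old ad lib group (2 libraries each). Within 5 kb of the start sites, 4 peaks were found, 1 in each OCR and OCRRF library, all at the same place about 4 kb upstream of a Stat5b start site, inside the gene. Their summits lay 4221 and 4215 bp (OCR) and 4240 and 4247 bp (OCRRF) upstream. Fold enrichment over background was 9.79 and 7.85 in OCR and 6.49 and 7.26 in OCRRF. Neither old ad lib library had a called peak there, at 3046 and 2900 peaks in all, which does not show that PU.1 was absent. An accessible region overlapped this place, at 1.81, 1.96, 1.42 and 1.14 CPM in OCR and 1.07 and 1.87 CPM in OCRRF, with no difference called (log2 0.12, adjusted p = 0.938). No peak was called within 5 kb of Socs1, Socs2, Socs3, Cish, Pim1, Pim2, Stat5a or Jak2.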

How the data were processed

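The deposited values of RNA-seq, ATAC-seq, and ChIP-seq for PU.1 and histone marks in mouse HSCs were the starting point. The 9 genes, the pathway list and the marker lists were chosen with earlier results of these data known. All 9 passed the filter on low counts in every comparison. The labels do not name the culture or animal behind each library of a group, so p-values measure the spread between libraries.

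The authors trimmed RNA reads, aligned them to mm10 with STAR and deposited featureCounts counts per GENCODE M22 gene, and for ATAC-seq counts in 131918 consensus regions (BWA, MACS). Gene coordinates, exon lengths and overlapping genes given here came from the GENCODE release before M22. Strand and multi-mapping settings, and any shift of transposase insertion sites, are not given in the sources used here. The deposited histone signal is 1 value for each promoter, which the authors scaled to a fixed number of reads. PU.1 peaks were called by the authors with MACS2 in each library. Every deposited peak has a score, a ratio called fold enrichment, and −log10 values for p and q. Signal and peak files carry no counts, and the read totals the study lists for ChIP-seq were not used here.

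Counts were filtered with filterByExpr, TMM scaled and tested with glmQLFit and glmQLFTest of edgeR 4.0.16 in R 4.3.3, each comparison on its own groups. Calls needed an adjusted p (Benjamini-Hochberg) under 0.05 with a difference above 1.2-fold. The SE was taken as the size of the log2 fold change over the root of its F statistic. Alternatives were DESeq2 1.42.0, its size factors, TMM from genes above 5 CPM, other filters, the replicate number as a block and each library left out. Named pathway genes were the called ones with a mean of at least 5 CPM, at most 4 in each direction by size; 1 called gene is not reported here. Fits were tested on simulated data, in which 200 genes that averaged at least 5 CPM changed by a factor of 2. Of these, 99.5% were recovered in OCR against OAL and 61% in YCR against YAL. With 2 libraries in a group, a library left out leaves 1, which is assumed to vary like the other group.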

Additional observations from a re-analysis of the deposited data

Results flagged for a closer look

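Values that stood apart within a group of 4 libraries were looked for among the 9 genes and their accessible regions. Of 84 groups, 6 held a library whose gap to the nearest other was above Dixon's critical share of the group's range, which chance gives in about 5% of groups. The library with the second Bmpr1a shRNA, replicate 2, of the double knockdown stood high for Pim2, at 125.5 CPM where the other 3 were at 75.6 to 81.3. The same library stood high for Socs3, at 13.8 CPM where the others were at 5.34 to 6.40. Kdr knockdown replicate 2 was low for Jak2 (130.4 CPM, others 163.6 to 169.4). YCR replicate 1 was high for Stat5b (242.7 CPM, others 192.8 to 201.0). Among accessible regions, OCR replicate 3 was low at the Socs3 region 702 bp upstream (4.87 CPM, others 6.18 to 6.38), and OCR replicate 1 was low at the Pim1 region 177 bp upstream (28.4 CPM, others 32.6 to 33.3). The differences between ages in the response to restriction or refeeding were called by edgeR for 0 of the 9 genes, with an unadjusted p below 0.05 for 0 and 2, and DESeq2 called 0. Like the other RNA values of these genes, these counts are a description without a test.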

How the results depend on the processing

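The counts of genes and accessible regions called and of PU.1 peaks were pooled here. They kept within 1.5 times of the main count in 62 of 77 cases under other settings and in 95 of 100 fits that left out a library. A main count of 0 that stayed at 0 is among those kept. In YCR against YAL the count of 3 became 1 (Socs2) with the replicate block, and 1 to 3 with a library left out (1 without YCR replicate 2). In YCRRF against YCR the count of 0 became 4 with DESeq2 and with no filter, 2 with at least 10 counts in every library, and 0 to 1 with a library left out (Pim2 without YCRRF replicate 3). In OCRRF against OAL the count of 1 became 3 with DESeq2, 2 with DESeq2 size factors, 3 with no filter, 4 with the replicate block, and 0 to 1 with a library left out (0 without OCRRF replicate 1 or OAL replicate 2). In OAL against YAL it was 5 in place of 2 with no filter. After Kdr knockdown it was 1 (Pim2) in place of 0 with no filter, with the replicate block and at an unadjusted p below 0.05, and after the double knockdown 1 (Pim2) with DESeq2. Accessible regions called numbered 1 in place of 0 within 20 kb and 0 to 1 with a library left out (1 without OCRRF replicate 2), and PU.1 peaks near the genes 9 in place of 4 within 20 kb. A PU.1 peak within 20 kb of both Stat5a and Stat5b was counted for each gene. The cause of each change was not tested.

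The labels do not say whether replicate numbers pair the samples. The correlation of same-numbered libraries' deviations was between -0.264 and 0.216 and exceeded 0.1 in only 1 pair of each knockdown. With 2 to 4 such pairs in a comparison it cannot decide whether they are paired, so the block is given only as another setting. Values near 0 in the knockdowns changed sign. After Kdr knockdown Jak2 was -0.011 with TMM from genes above 5 CPM and -0.088 with the replicate block, Pim1 was -0.029 with the block, and with a library left out Jak2 ranged from -0.070 to 0.092, Pim1 from -0.10 to 0.21, Stat5a from -0.071 to 0.026 and Bmpr1a from -0.66 to 0.27. In the double knockdown Socs3 was -0.087 with the first Bmpr1a shRNA alone and Pim1 -0.061 with the second alone, and with a library left out Stat5b ranged from -0.058 to 0.11, Socs3 from -0.16 to 0.39 and Stat5a from -0.065 to 0.14. Over all genes, edgeR and DESeq2 called 48 and 454 in YCR against YAL (25% and 40.5% higher), 1110 and 2352 in OCRRF against OCR (20.4% and 8.08% higher) and 1316 and 3906 in OCRRF against OAL (40.1% and 22.8% higher). In OAL against YAL they called 3486 and 4753 (46.5% and 60.1% higher), and in OCR against OAL TMM from genes above 5 CPM moved the share higher from 45.6% to 56.2%. The OCRRF and scramble groups hold 2 libraries each, and the shallowest library, YCRRF replicate 4, held 11102898 counts, which limits low genes.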
